A study of Homo sapiens with 30 samples.

Results

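Transcripts of 10 core genes of the circadian clock were followed in HepG2 cells, a human liver cancer line, after 24 h with ethanol extracts of tonifying herbal formulas. The genes were taken by name: PER1, PER2, PER3, CRY1, CRY2, NR1D1, NR1D2, DBP, BMAL1 (listed as ARNTL in older annotation) and CLOCK. All 10 were found among the 60675 gene rows of the count table and all 10 were among the 16084 genes tested.

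The 30 libraries fell into 13 groups. The Vehicle group held 3 libraries of cells given 0.1% DMSO, per the sample labels. Palmul-tang and Sibjeondaebo-tang were each given at 500 (high), 100 (medium) and 20 (low) µg/mL with 3 libraries per dose. Samul-tang was given at the same doses with 2 libraries per dose, labelled replicates 2 and 3, and Sagunja-tang with 1 library per dose. All groups are the same unmodified cell line. The labels do not state that libraries of a group came from separately grown cells, so the tests weigh differences against the spread of the libraries alone, and that spread may be technical. The labels give neither the hour of the day at harvest nor any step that sets the cells to a common clock phase.

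In the mammalian clock, BMAL1 and CLOCK form a DNA-binding pair that switches on the PER and CRY genes, whose proteins then block the pair. A further loop runs through NR1D1 and NR1D2 (the REV-ERB receptors), which hold BMAL1 transcription down in competition with the ROR receptors, and through DBP, an output factor that acts at D-box sites. In liver these genes time much of metabolism, and in a culture whose cells run out of phase a bulk measurement averages over their phases.

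Depth ran from 21570416 to 37707232 expected counts per library, and a clock gene received between 68 (DBP) and 1400 (CLOCK) counts in a library. The vehicle libraries, the Samul-tang and Sagunja-tang libraries, and the Palmul-tang and Sibjeondaebo-tang libraries carry 3 different label prefixes, whose meaning is not given, so in every comparison with vehicle the extract and the library set cannot be told apart. High against low dose, and Sibjeondaebo-tang against Palmul-tang, were compared within a prefix. The 10 hepatocyte and HepG2 markers, ALB and AFP among them, summed to between 54444 and 65505 CPM (counts per 1000000 counts of the library, with TMM scaling) and none was at 0 in any library. The 7 fibroblast markers summed to 29.2 CPM in Sibjeondaebo-tang low replicate 3 and to between 3.97 and 7.63 CPM elsewhere. The 4 endothelial markers summed to between 1.89 and 3.16 CPM. Of the 4 immune markers, CD3E and PTPRC reached at most 1 count in a library, and the list sum of 1077 to 1824 CPM came mainly from LYZ, at 1017 to 1758 CPM. Samul-tang medium replicates 2 and 3 differed the most of the 24 replicate pairs, with a chi-square per degree of freedom of 41.8 where counting noise alone gives about 1, and the next pair was at 25.1. For the calls that rest on these libraries, log2 differences are also given without replicate 2 and without replicate 3. Group means, their order and the similarity of patterns are given only with both.

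On GRCh38 (GENCODE 29), PER1 lies at chr17:8140472-8156506, PER2 at chr2:238244038-238290102, CRY1 at chr12:106991364-107093829, NR1D1 at chr17:40092787-40100725, DBP at chr19:48630030-48637438 and CLOCK at chr4:55427903-55547138, all on the minus strand. On the plus strand, PER3 lies at chr1:7784320-7845177, CRY2 at chr11:45847118-45883248, NR1D2 at chr3:23945260-23980618 and BMAL1 at chr11:13276652-13387266.

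All clock genes were detected in every library, and each gene's levels lay close together across the groups. Per length (CPM per kilobase of annotated exon, averaged over the 13 groups), NR1D1 was the highest at 6.85, followed by CRY1 at 3.94, CLOCK at 3.32, PER2 at 3.30, CRY2 at 3.03, NR1D2 at 2.47, PER1 at 1.85, PER3 at 1.17, BMAL1 at 1.06 and DBP at 0.682. The exon length is that of all GENCODE 29 exons of the gene together, 2772 bases for NR1D1, 6544 for DBP and 11762 for CLOCK. It can exceed the length of the transcripts expressed, and the order depends on it. In CPM without division by length, CLOCK had the highest mean at 39.0 and DBP the lowest at 4.46. Within a gene, the highest group mean exceeded the lowest by 1.17-fold for CLOCK, 1.19-fold for PER1, 1.24-fold for NR1D2, 1.26-fold for NR1D1 and 1.27-fold for CRY1. The corresponding folds were 1.32 for PER2 and CRY2, 1.4 for BMAL1, 1.5 for PER3 and 1.72 for DBP. Many of these extremes are lone Sagunja-tang libraries: the lowest mean of CRY2, PER3, BMAL1 and DBP (high dose) and of NR1D2 (low dose), and the highest mean of PER2, CRY1 and CLOCK (medium dose) and of PER3 and CRY2 (low dose). The folds of PER3 and CRY2 thus compare single libraries at both ends. When the 10 replicated groups were put in order of their mean, the libraries of neighbouring groups overlapped in all 9 neighbour pairs for every gene except PER2. For PER2 they overlapped in 8 pairs, and the 3 vehicle libraries lay above the 2 Samul-tang medium libraries.

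**Figure D1:**
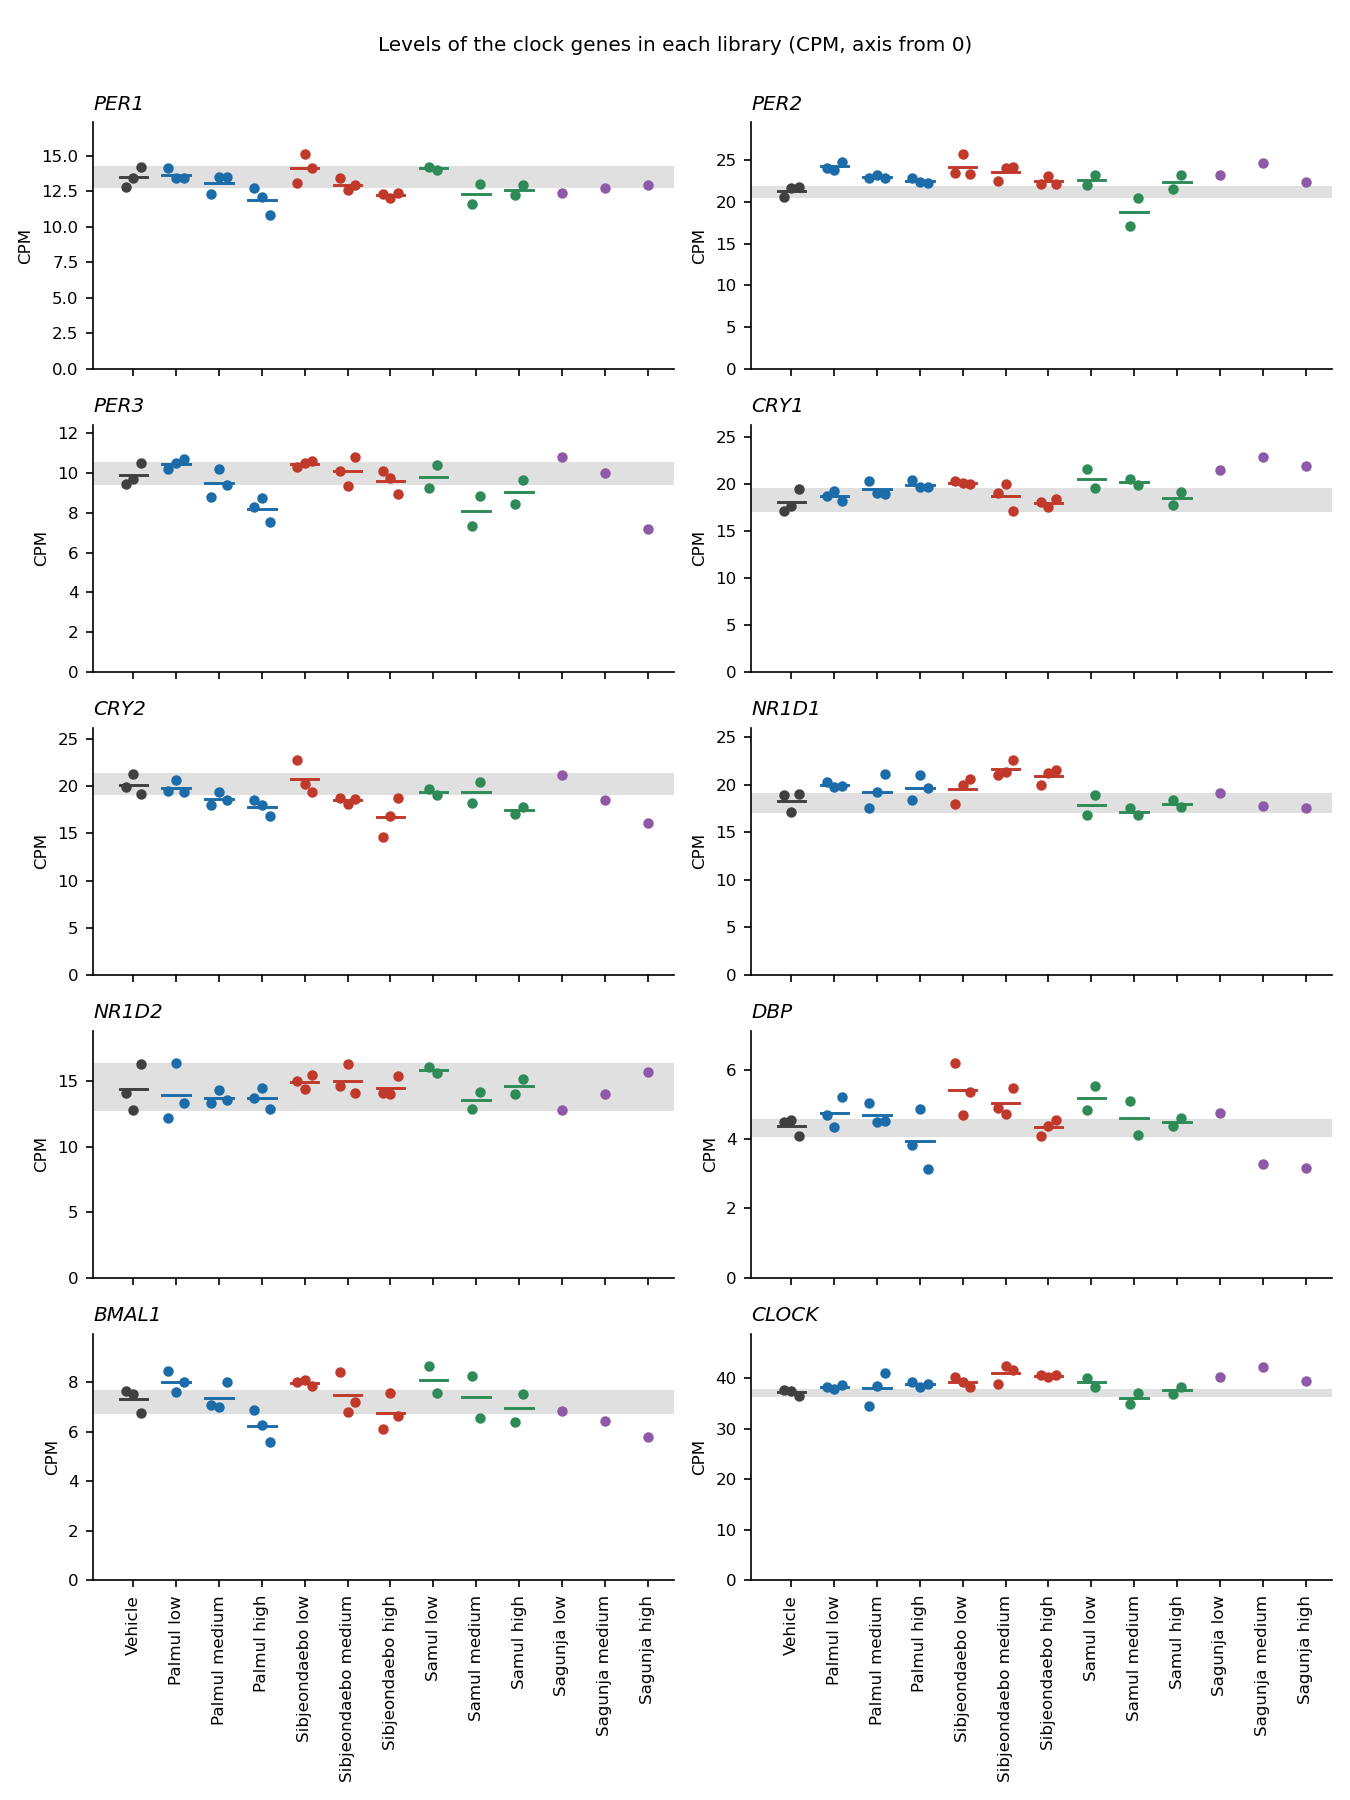
Level of each clock gene in every library (y axis, CPM from 0; x axis, group; points are libraries, bars are means of groups with replicates, the grey band is the range of the 3 vehicle libraries). The points of each gene stay near the band, with DBP between 3.14 and 6.20 CPM and CLOCK between 34.4 and 42.4 CPM.

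Counts of several of these genes may include reads of genes that overlap them. NR1D1 shares 263 exon bases with THRA on the opposite strand, DBP shares 661 with SPHK2 and CLOCK shares 76 with TMEM165. The partners were expressed here, THRA at 18.9 to 24.9 CPM, SPHK2 at 16.6 to 22.6 CPM and TMEM165 at 37.0 to 56.9 CPM. The library kit keeps strand, but the sources used here do not give the strand setting of the counting, so levels of NR1D1, DBP and CLOCK are uncertain by the reads of these partners. PER3 overlaps UTS2 by 868 bases, and UTS2 was at 0 CPM in every library. In bulk RNA, fewer cells with a transcript and less of it per cell cannot be told apart.

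The start regions of the genes were searched for the elements through which the clock factors are known to act, because the genes of a loop are often described by them. The windows ran from 250 bases before to 50 bases after each RefSeq start (GRCh38.p14), with 15 windows for the 10 genes and 35116 windows of the same length for all genes. The letters searched on both strands were CACGTG (the E-box bound by BMAL1 and CLOCK), CACGTT (its E′-box variant), TTATGTAA (the D-box bound by DBP, TEF and HLF), TAGGTNA (a core of the elements shared by ROR and REV-ERB receptors) and TGACGTCA (the cAMP response element). No match of one of these can be a match of another. The N in the ROR core was chosen after the letters at the BMAL1 start had been seen. An E-box was in 7.26% of all windows, an E′-box in 5.34%, a D-box in 0.886%, a ROR core in 6.52% and a cAMP response element in 1.85%. At least 1 match was found in 9 of the 15 windows and for 9 of the 10 genes, and DBP had none, where 20.2% of all windows held at least 1. Without the ROR core, which the BMAL1 start had to match, 8 of the 15 windows and 8 of the 10 genes held at least 1 match, against 14.6% of all windows. The clock genes are textbook carriers of these elements, so this count is a description and was not tested. The matches of the genes that passed a test below are shown with up to 30 bases on either side and at most 10 bases past the start, 5′ to 3′ on the gene's strand, with the match in capitals.

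PER1, E-box at -173 to -168 from the start (chr17:8152542-8152607, minus strand): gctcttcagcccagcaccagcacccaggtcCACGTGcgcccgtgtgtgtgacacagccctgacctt

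PER2, E′-box at -197 to -192 (chr2:238288772-238288837, minus strand): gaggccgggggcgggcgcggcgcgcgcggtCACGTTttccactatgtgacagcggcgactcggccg

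PER3, D-box at -177 to -170 of the first of 2 starts (chr1:7784084-7784151, plus strand): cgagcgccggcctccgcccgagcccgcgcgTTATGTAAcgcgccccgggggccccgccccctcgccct

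CRY2, E′-box read on the other strand at -188 to -183 of the second of 2 starts (chr11:45847257-45847322, plus strand): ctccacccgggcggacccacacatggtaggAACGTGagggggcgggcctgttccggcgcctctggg

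NR1D1, E′-box read on the other strand at -168 to -163 (chr17:40100722-40100787, minus strand): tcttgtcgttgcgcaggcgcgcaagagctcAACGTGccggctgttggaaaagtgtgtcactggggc

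BMAL1, ROR core across the start, at -6 to 1 of the first of 2 starts (chr11:13277754-13277799, plus strand): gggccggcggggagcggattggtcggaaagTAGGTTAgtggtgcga

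CLOCK, E′-box at -187 to -182 of the second of 2 starts (chr4:55546084-55546149, minus strand): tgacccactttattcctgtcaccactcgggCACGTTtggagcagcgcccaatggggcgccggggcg

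BMAL1 held a further ROR core at 31 to 37 after that start, and CRY2 held a ROR core at -65 to -59 of its second start. NR1D2 held a D-box and 2 E-boxes before its second start, and CRY1 an E′-box at -89 to -84. No window of the 10 genes held the cAMP response element. These are matches of letters in a short window and not measured sites.

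**Figure D2:**
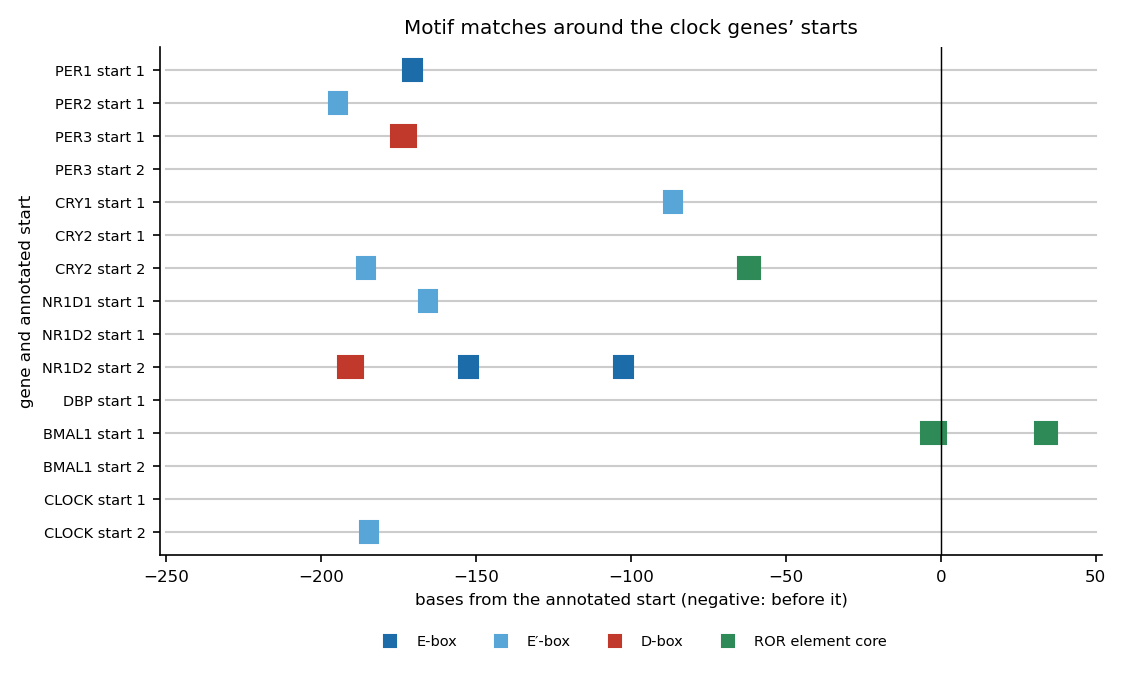
Position of each motif match (boxes, coloured by motif) in the windows of the clock genes (rows, 1 per annotated start; x axis, bases from the start). The E-box, E′-box and D-box matches lie before the starts, and the 2 ROR core matches of BMAL1 lie at and after its start.

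Against vehicle, 9 of the 90 tests of a clock gene at a dose of Palmul-tang, Sibjeondaebo-tang or Samul-tang passed, 5 higher and 4 lower. A test passed at an adjusted p below 0.05 in edgeR's quasi-likelihood test, adjusted by Benjamini-Hochberg over all 16084 genes. The 90 log2 fold changes ran from -0.30 to 0.30, and the outermost bounds of their 95% intervals were -0.49 and 0.55. At an unadjusted p below 0.05 there were 19. The 9 comparisons share the 3 vehicle libraries. In these comparisons, 18.8% to 24.1% of all tested genes had every extract library below every vehicle library. Between 18.6% and 24.9% had every extract library above. The share of counts from mitochondrial genes was 12.4% to 14.5% in the vehicle libraries and higher, 14.8% to 19.7%, in every Palmul-tang and Sibjeondaebo-tang library. It was 15.4% and 16.7% in Samul-tang high, 14.6% and 15.4% in Samul-tang low, and 12.9% and 11.2% in Samul-tang medium. Its part in the results was not tested.

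Of the activators, CLOCK passed in 1 of the 9 comparisons, by a small margin. Its vehicle libraries were at 37.7, 37.5 and 36.4 CPM and its Sibjeondaebo-tang medium libraries at 38.9, 42.4 and 41.5 CPM. The groups did not overlap, and CLOCK was higher by 0.14 on the log2 scale (SE 0.0523, adjusted p = 0.0452). The call was lost in 7 of 12 alternatives, with adjusted p up to 0.183, among them leaving out any 1 vehicle library (0.0588 to 0.128) or Sibjeondaebo-tang medium replicate 2 (0.166) or 3 (0.126), and testing with no filter on low counts (0.132). BMAL1, its partner, passed at no dose, with log2 values from -0.22 in Palmul-tang high to 0.14 in Samul-tang low.

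Of the REV-ERB receptors, NR1D1 was higher than vehicle in Sibjeondaebo-tang at medium and high dose. It stood at 18.9, 17.1 and 19.0 CPM in vehicle, at 21.0, 21.3 and 22.6 CPM in Sibjeondaebo-tang medium and at 20.0, 21.2 and 21.5 CPM in Sibjeondaebo-tang high. All 6 of these extract libraries lay above the 3 vehicle libraries. Over all tested genes, 21.8% at medium dose and 24.9% at high dose had every extract library above vehicle. Their mitochondrial shares were 15.7%, 18.5% and 19.7% at medium dose and 17.7%, 17.2% and 19.4% at high dose, also all above vehicle. The log2 differences were 0.24 at medium dose (SE 0.0693, adjusted p = 0.00805) and 0.20 at high dose (SE 0.07, adjusted p = 0.0277). Without vehicle replicate 2, the lowest, they were 0.19 (adjusted p = 0.0694) and 0.13 (adjusted p = 0.233), and the medium call was also lost without Sibjeondaebo-tang medium replicate 3 (adjusted p = 0.0501). The high-dose call was lost in 6 of 12 alternatives, among them without vehicle replicate 1 (0.0507), Sibjeondaebo-tang high replicate 2 (0.0752) or 3 (0.134), with DESeq2 (0.0575) and with no filter on low counts (0.074). For NR1D1, Sibjeondaebo-tang high against low dose did not pass (0.10, adjusted p = 0.327). Neither did Sibjeondaebo-tang against Palmul-tang at medium dose (0.16, adjusted p = 0.761) or high dose (0.09, adjusted p = 0.516). In these comparisons the libraries overlapped. All 3 Palmul-tang low libraries also lay above vehicle, without passing (0.13, adjusted p = 0.19). The opposite-strand THRA, from which some NR1D1 reads could come, was not tested as a source. NR1D2 passed at no dose, with log2 values from -0.08 to 0.15.

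The PER genes, the inhibitory arm that turns over with each cycle, did not move as a group. PER2 was at 20.6, 21.6 and 21.8 CPM in vehicle, at 24.1, 23.8 and 24.8 CPM in Palmul-tang low and at 23.4, 25.7 and 23.3 CPM in Sibjeondaebo-tang low. The extract libraries lay above all vehicle libraries, by 0.18 on the log2 scale in both (SE 0.0596 and 0.059, adjusted p = 0.0246 and 0.0264). Both calls were lost without vehicle replicate 1 (adjusted p = 0.0734 and 0.0853). The Palmul-tang call was also lost without Palmul-tang low replicate 3 (0.0951), and the Sibjeondaebo-tang call without Sibjeondaebo-tang low replicate 2 (0.166). Without replicate 3 of Sibjeondaebo-tang low, the library with the fibroblast markers, the difference was 0.20 (adjusted p = 0.0326).

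In Samul-tang medium, PER2 and PER3 lay below vehicle. PER2 was at 17.1 and 20.4 CPM in replicates 2 and 3, and PER3 at 7.33 and 8.86 CPM, against 9.47, 9.68 and 10.5 CPM in vehicle. Replicate 2 was the lower for both genes. The log2 differences were -0.19 for PER2 (SE 0.0678, adjusted p = 0.0468) and -0.30 for PER3 (SE 0.0956, adjusted p = 0.0269). Without that replicate they were -0.06 and -0.15, and without replicate 3 they were -0.31 and -0.42. This is the pair of libraries that differed the most. Both calls were lost with no filter on low counts (adjusted p = 0.198 and 0.0641). They were also lost when only the compared groups were fitted (0.266 and 0.167). The PER2 call was lost without vehicle replicate 2 (0.115) or 3 (0.118) or with DESeq2 (0.0624). The PER3 call was lost without vehicle replicate 3 (0.105).

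PER3 was also lower in Palmul-tang high, with 8.27, 8.72 and 7.52 CPM. These 3 libraries lay below the vehicle libraries, with a log2 difference of -0.27 (SE 0.0866, adjusted p = 0.0173). The call was lost without vehicle replicate 3 (-0.22, adjusted p = 0.082) or Palmul-tang high replicate 3 (-0.22, adjusted p = 0.0829). PER1 passed at no dose, with log2 values from -0.18 to 0.07.

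Of the CRY genes, which encode the proteins that hold BMAL1 and CLOCK inactive, CRY2 fell in Sibjeondaebo-tang high. Its levels were 19.9, 21.3 and 19.2 CPM in vehicle and 14.6, 16.8 and 18.8 CPM in Sibjeondaebo-tang high. The groups did not overlap, although the extract libraries were spread over a wider range than the vehicle libraries. The mitochondrial shares of these extract libraries, in the same order, were 17.7%, 17.2% and 19.4%, against 12.9%, 12.4% and 14.5% in vehicle. The log2 difference was -0.27 (SE 0.0741, 95% interval -0.42 to -0.12, adjusted p = 0.00507), and the call was kept in 12 of 12 alternatives. Without passing, CRY2 was also below vehicle in Palmul-tang high (-0.18, adjusted p = 0.0566) and Samul-tang high (-0.21, adjusted p = 0.0632). Those groups did not overlap with vehicle either. In all, 8 of 9 log2 values of CRY2 were below 0. CRY1 passed at no dose, with 8 of 9 log2 values above 0 and the highest at 0.19 in Samul-tang low.

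DBP, the output factor and the gene with the fewest counts, passed at no dose. Its log2 values ran from -0.14 in Palmul-tang high to 0.30 in Sibjeondaebo-tang low, and its standard errors were the largest of the 10 genes. In Sibjeondaebo-tang low its libraries were at 6.20, 4.69 and 5.35 CPM against 4.48, 4.56 and 4.10 CPM in vehicle. Those groups did not overlap, yet the difference did not pass.

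By comparison, the counts were as follows, each beside the share of all tested genes that passed. In Palmul-tang, 1 of 10 clock genes passed at high dose (31.8% of all genes), 0 at medium dose (22.3%) and 1 at low dose (23.2%). In Sibjeondaebo-tang, 2 of 10 passed at high dose (36.0%), 2 at medium dose (30.2%) and 1 at low dose (23.0%). In Samul-tang, 0 passed at high dose (18.5%), 2 at medium dose (19.8%) and 0 at low dose (11.2%). The share of clock genes was below that of all genes in 8 of these comparisons and about equal to it in Samul-tang medium.

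**Figure D3:**
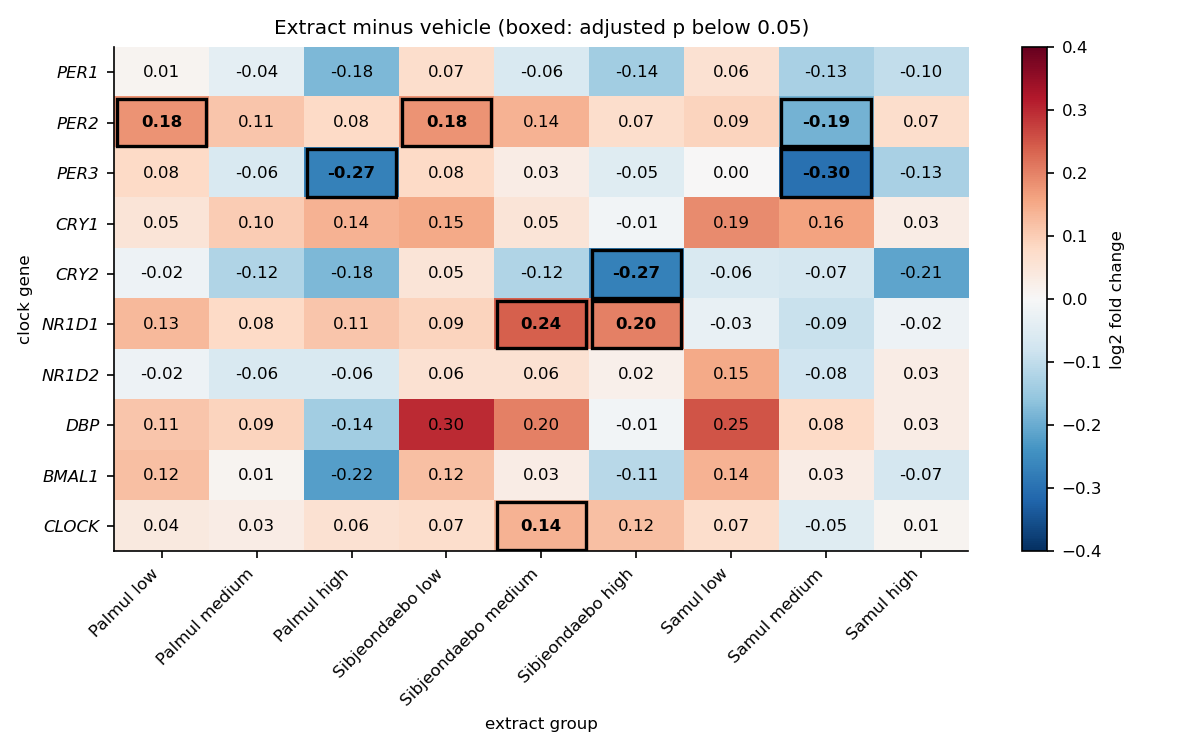
Log2 fold change of each clock gene (rows) in each dose of 3 formulas (columns) against vehicle, from edgeR, with colour from blue (lower) to red (higher) and boxes around the 9 that passed. The boxed values lie between -0.30 and 0.24, and no gene is boxed in more than 3 of the 9 columns.

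Within a formula, most clock genes stood lower at the high dose than at the low dose. The log2 difference was below 0 for 8 of 10 genes in Palmul-tang, 8 of 10 in Sibjeondaebo-tang and 9 of 10 in Samul-tang, against 49.5%, 45.7% and 50.5% of all tested genes. The median over the 10 genes was -0.13, -0.14 and -0.14, against 0.00, 0.02 and 0.00 over all tested genes. PER1, PER2, PER3, CRY2, NR1D2, DBP and BMAL1 were below 0 in all 3 formulas. Some of these values were closer to 0 than their SE. They were PER2 in Samul-tang (-0.02, SE 0.0721) and NR1D2 in Palmul-tang (-0.03, SE 0.0893) and Sibjeondaebo-tang (-0.04, SE 0.0874). The size was small: 4 of the 30 tests passed, all lower, 10 had an unadjusted p below 0.05, and the 95% intervals stayed between -0.57 and 0.24. These comparisons share no library with each other.

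In Palmul-tang, PER3 and BMAL1 passed, 2 of 10 where 6.78% of all genes passed and 3.03% passed as lower. PER3 was at 8.27, 8.72 and 7.52 CPM at high dose and 10.2, 10.5 and 10.7 CPM at low dose, a log2 difference of -0.35 (SE 0.0861, adjusted p = 0.00853). BMAL1 was at 6.88, 6.27 and 5.58 CPM at high dose and 8.42, 7.61 and 7.99 CPM at low dose, a log2 difference of -0.34 (SE 0.106, adjusted p = 0.0475). In both genes every high-dose library lay below every low-dose library. The mitochondrial shares of the groups overlapped, at 14.9% to 16.9% at high dose and 14.8% to 18.4% at low dose. The PER3 call was lost only without Palmul-tang high replicate 3 (-0.31, adjusted p = 0.0512). The BMAL1 call was kept in 6 of 12 alternatives and lost with DESeq2 (adjusted p = 0.0548) and without Palmul-tang high replicate 2 (0.105) or 3 (0.179) or Palmul-tang low replicate 1 (0.133), 2 (0.0727) or 3 (0.115). PER1, PER2 and CRY2 also had all high-dose libraries below all low-dose libraries without passing, and CRY1 had them above. Over all tested genes, 11.3% had all high-dose libraries below and 12.4% above.

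In Sibjeondaebo-tang, CRY2 and PER1 passed, 2 of 10 where 19.8% of all genes passed and 9.44% passed as lower. CRY2 was at 14.6, 16.8 and 18.8 CPM at high dose and 22.8, 20.3 and 19.4 CPM at low dose, a log2 difference of -0.32 (SE 0.0732, adjusted p = 0.0022). The groups came closest at 18.8 and 19.4 CPM and did not overlap. The CRY2 call was kept in 12 of 12 alternatives, and without the low-dose replicate with fibroblast markers the difference was -0.36 (adjusted p = 0.00184). PER1 was at 12.3, 12 and 12.4 CPM at high dose and 13.1, 15.1 and 14.1 CPM at low dose, a log2 difference of -0.21 (SE 0.0695, adjusted p = 0.0339). The high-dose libraries were tightly grouped below the low-dose ones. The mitochondrial shares also did not overlap, with 17.2% to 19.4% at high dose and 15.7% to 17% at low dose, and their part in the CRY2 and PER1 results was not tested. The PER1 call was lost without that low-dose replicate (-0.21, adjusted p = 0.0722), without Sibjeondaebo-tang low replicate 2 (-0.15, adjusted p = 0.198) or without Sibjeondaebo-tang high replicate 2 (-0.19, adjusted p = 0.103). PER2, PER3, CRY1, DBP and BMAL1 also had all high-dose libraries below all low-dose libraries without passing. That made 7 of 10 clock genes, against 17.1% of all tested genes.

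In Samul-tang, 0 of 10 clock genes passed, where 1.42% of all genes did. With 2 libraries per dose, 7 of 10 genes (PER1, CRY1, CRY2, NR1D2, DBP, BMAL1 and CLOCK) had both high-dose libraries below both low-dose libraries, against 20.8% of all tested genes. The log2 differences ran from -0.22 for BMAL1 to 0.01 for NR1D1. CRY1 and BMAL1 illustrate the size: CRY1 was at 17.8 and 19.2 CPM at high dose and 21.6 and 19.6 CPM at low dose, and BMAL1 at 6.39 and 7.52 against 8.65 and 7.54 CPM.

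Sagunja-tang, with 1 library per dose, allows no test. PER3 was at 7.19 CPM at high, 10.0 at medium and 10.8 CPM at low dose. Its counting intervals (exact binomial, 95%) were 6.22 to 8.27 CPM at high dose and 9.53 to 12.2 CPM at low dose. CRY2 was at 16.1, 18.5 and 21.2 CPM in the same order, with intervals of 14.6 to 17.7 and 19.4 to 23.2 CPM at high and low dose. DBP was at 3.16, 3.29 and 4.75 CPM and BMAL1 at 5.80, 6.41 and 6.83 CPM. The high dose was the lowest of the 3 in each of these 4 genes, by log2 ratios of high to low of -0.58 for PER3, -0.40 for CRY2, -0.58 for DBP and -0.23 for BMAL1. In all, 7 of 10 clock genes were lower at high than at low dose, against 48.5% of all tested genes, and NR1D2 was higher by 0.29. At high dose, 4 clock genes lay below the range of the 3 vehicle libraries and 3 above it, where 35.9% and 35.4% of all tested genes did. CRY1, at 22.0, 22.9 and 21.5 CPM, lay above the vehicle range of 17.2 to 19.5 CPM at all doses. The intervals cover counting error only.

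**Figure D4:**
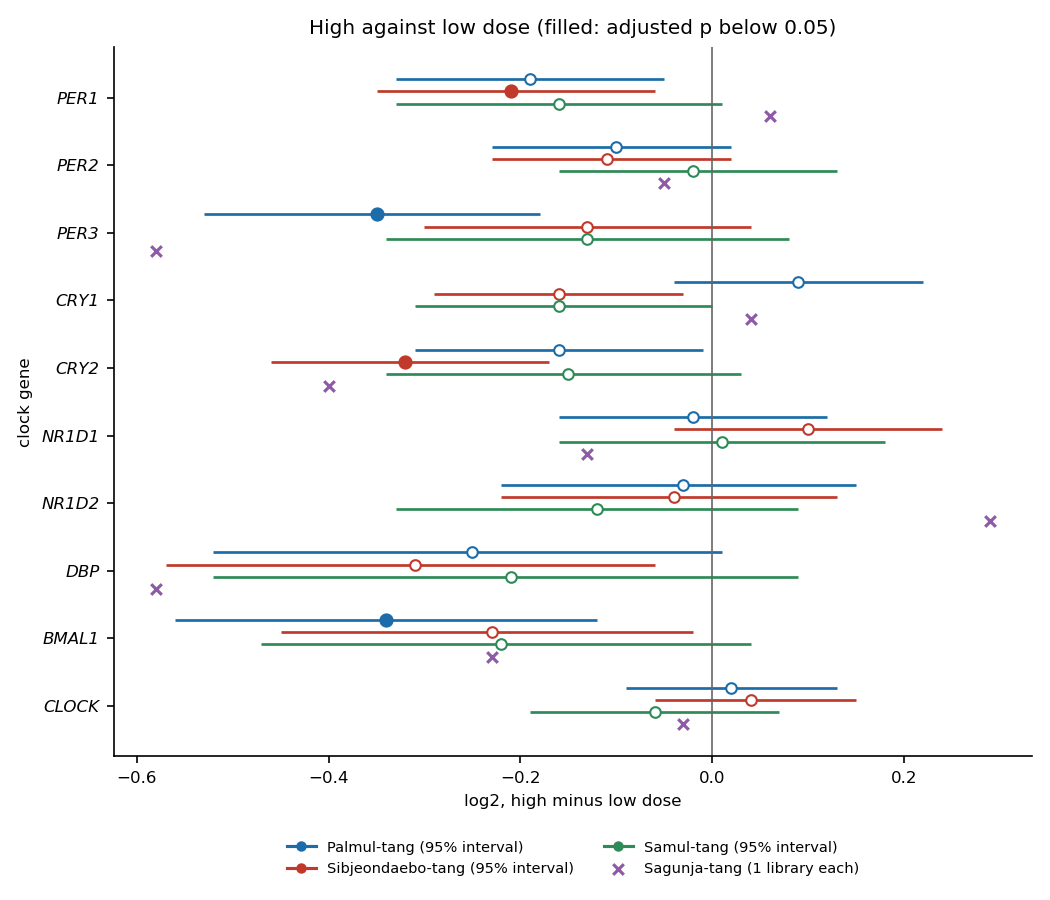
Log2 difference between high and low dose for each clock gene (rows) in 4 formulas (colours), with 95% intervals for the 3 formulas with replicates and crosses for the ratio of the lone Sagunja-tang libraries. Filled points passed the test: PER3 at -0.35 and BMAL1 at -0.34 in Palmul-tang, and PER1 at -0.21 and CRY2 at -0.32 in Sibjeondaebo-tang.

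Whether the dose response differed between formulas was tested directly, and no clock gene passed. For Sibjeondaebo-tang against Palmul-tang 0 of 10 passed (2.00% of all genes), for Samul-tang against Palmul-tang 0 of 10 (0.0124%) and for Samul-tang against Sibjeondaebo-tang 0 of 10 (1.68%). The 30 differences of log2 effects ran from -0.25 to 0.23 with interval bounds of -0.45 and 0.50, the smallest adjusted p was 0.183, and 2 had an unadjusted p below 0.05. So the calls of PER3 and BMAL1 in Palmul-tang and of PER1 and CRY2 in Sibjeondaebo-tang were not shown to belong to that formula alone.

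Sibjeondaebo-tang contains the herbs of Palmul-tang with additions, in traditional use, and the pair was compared at each dose. At high dose 0 of 10 clock genes passed (6.47% of all genes), at medium dose 0 of 10 (0.0311%) and at low dose 0 of 10 (0% of all genes). The log2 differences ran from -0.15 to 0.22, the interval bounds were -0.28 and 0.43, the smallest adjusted p was 0.133, and 4 of 30 had an unadjusted p below 0.05. PER3 and CLOCK had all 3 Sibjeondaebo-tang high libraries above all 3 Palmul-tang high libraries, and CRY1 had them below. Over all tested genes, 14.3% had them above and 11.5% below.

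Larger differences from vehicle were measured among genes around the core loops. Of 42 such genes in 8 lists (activators, repressors, output factors, kinases and turnover factors, corepressors, clock-controlled outputs, cAMP targets and glucocorticoid targets), 36 were tested. RORB, BHLHE41, CIART, NR4A2, NR4A3 and ZBTB16 were too low. Against vehicle at high dose, 9 rose and 9 fell in Palmul-tang, 12 rose and 7 fell in Sibjeondaebo-tang, and 6 rose and 5 fell in Samul-tang. These are 50%, 52.8% and 30.6% of the 36 genes, where 31.8%, 36.0% and 18.5% of all tested genes passed. The medians over the 36 genes were 0.01, 0.05 and -0.02 on the log2 scale, against -0.01, -0.01 and 0.00 over all tested genes. High against low dose called 2 higher and 3 lower in Palmul-tang, 5 and 2 in Sibjeondaebo-tang, and 1 and 1 in Samul-tang. These are 13.9%, 19.4% and 5.56% of the 36 genes, where 6.78%, 19.8% and 1.42% of all tested genes passed. Whether these lists differ from the 10 core genes was not tested.

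Among the repressors, BHLHE40, whose protein competes with BMAL1 and CLOCK at E-boxes, rose the most. It was at 34.8 to 39.9 CPM over the 3 vehicle libraries and at 48.0 CPM or more in every extract library, up to 95.7 CPM in a Palmul-tang medium library. The log2 differences at high dose were 0.94 in Palmul-tang (SE 0.0709, adjusted p = 3.43e-11), 0.81 in Sibjeondaebo-tang (SE 0.0712, adjusted p = 6.55e-10) and 0.68 in Samul-tang (SE 0.0777, adjusted p = 2.97e-07). The means in CPM did not follow dose in every formula: Palmul-tang stood at 64.9, 88.6 and 71.1 from low to high dose, Sibjeondaebo-tang at 51.9, 62.9 and 64.9, and Samul-tang at 49.8, 51.1 and 59.5. High against low passed in Sibjeondaebo-tang (0.32, adjusted p = 0.0011). CIPC, an inhibitor of CLOCK, fell by 0.19 in Palmul-tang high and by 0.21 in Sibjeondaebo-tang high on the log2 scale.

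Of the 4 activators tested, 1 was higher and 1 lower than vehicle in Palmul-tang high. In Sibjeondaebo-tang high and in Samul-tang high, 0 were higher and 1 was lower. The shares of all tested genes that passed were 31.8%, 36.0% and 18.5%. At low dose 1 was also lower in each of the 3 formulas. The genes called lower at high dose are not reported here by name. RORA, a receptor that competes with the REV-ERB receptors at the elements searched for above, did not pass at high dose. Its mean was 10.5 CPM in vehicle and between 11 and 11.3 CPM in the 3 high-dose groups. NPAS2, which can stand in for CLOCK, was higher than vehicle in Palmul-tang at low, medium and high dose, by 0.23, 0.22 and 0.16 on the log2 scale (adjusted p = 0.00159, 0.00212 and 0.0185). It was also higher in Sibjeondaebo-tang low and medium, by 0.18 and 0.21 (adjusted p = 0.0131 and 0.00256), and stood at 0.06 in Sibjeondaebo-tang high (adjusted p = 0.388).

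Of the relatives of DBP, TEF was lower than vehicle in all 3 high-dose groups, and HLF in Palmul-tang and Samul-tang. TEF had a mean of 11.9 CPM in vehicle, with libraries from 11 to 13 CPM, and of 7.94, 8.15 and 8.18 CPM in the high-dose groups of Palmul-tang, Sibjeondaebo-tang and Samul-tang. The TEF log2 differences were -0.59, -0.54 and -0.54 (adjusted p = 1.75e-06, 4.13e-06 and 6.51e-05). HLF fell by 0.24 in Palmul-tang high and by 0.21 in Samul-tang high on the log2 scale (adjusted p = 0.00042 and 0.00942), from a vehicle mean of 521 CPM. NFIL3, a repressor at the same D-box, did not pass at high dose in any of the 3 formulas. Of TEF, HLF and NFIL3, 1 was also lower than vehicle at low dose in each formula. The shares of all tested genes that passed there were 23.2%, 23.0% and 11.2%. High against low dose called 1 of the 3 lower in Palmul-tang and 0 in Sibjeondaebo-tang and Samul-tang, where 6.78%, 19.8% and 1.42% of all tested genes passed.

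Of the 7 clock-controlled outputs, 4 rose and 1 fell in Palmul-tang high, 6 rose in Sibjeondaebo-tang high, and 3 rose and 1 fell in Samul-tang high. On the log2 scale PPARGC1A, a coactivator of ROR-driven transcription, rose by 0.35, 0.43 and 0.30 in Palmul-tang, Sibjeondaebo-tang and Samul-tang high, KLF10, a transcription factor gene, by 0.48 and 0.53 in Palmul-tang and Sibjeondaebo-tang high, and ALAS1, of haem synthesis, by 0.28 in both Sibjeondaebo-tang high and Samul-tang high. WEE1, a cell-cycle kinase, fell by 0.25 in Palmul-tang high and by 0.31 in Samul-tang high.

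Of the turnover factors, FBXL21P, the human form of a CRY-directed ubiquitin ligase gene that is named as a pseudogene, was lower in Sibjeondaebo-tang high than in vehicle, with means of 4.86 and 8.02 CPM (log2 difference -0.72, adjusted p = 4.9e-07). It was also lower there than in Sibjeondaebo-tang low (-0.66, adjusted p = 3.72e-06) and than in Palmul-tang high (-0.42, adjusted p = 0.00498). The kinases CSNK1D, CSNK1E and GSK3B passed at no high dose against vehicle. Of the cAMP targets, the nuclear receptor gene NR4A1 rose by 0.52, 0.43 and 0.39 in Palmul-tang, Sibjeondaebo-tang and Samul-tang high, while the kinase gene SIK1 had log2 differences of -0.71 in Palmul-tang high and -0.43 in Sibjeondaebo-tang high that passed. NCOR1, a corepressor through which the REV-ERB receptors act, was above vehicle by 0.17, 0.23 and 0.19 in the 3 high-dose groups. Of the 2 corepressors tested, 1 was also higher than vehicle at low dose in each of the 3 formulas. The shares of all tested genes that passed there were 23.2%, 23.0% and 11.2%. High against low dose called 0 of the 2 in every formula. The deubiquitinase gene USP2 fell by 0.19 and 0.17 against vehicle in Palmul-tang and Sibjeondaebo-tang high.

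SGK1 of the glucocorticoid list fell by 0.92, 0.71 and 0.80 on the log2 scale against vehicle in the high-dose groups of Palmul-tang, Sibjeondaebo-tang and Samul-tang, with means of 31.4 CPM in vehicle and 16.6, 19.2 and 18.1 CPM in those groups. It was also lower at high than at low dose, by log2 differences of -0.72, -0.67 and -0.85 (adjusted p = 8.23e-08, 6.96e-08 and 4.09e-07). FKBP5 of the same list rose by 0.13 and 0.19 in Palmul-tang and Sibjeondaebo-tang high.

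**Figure D5:**
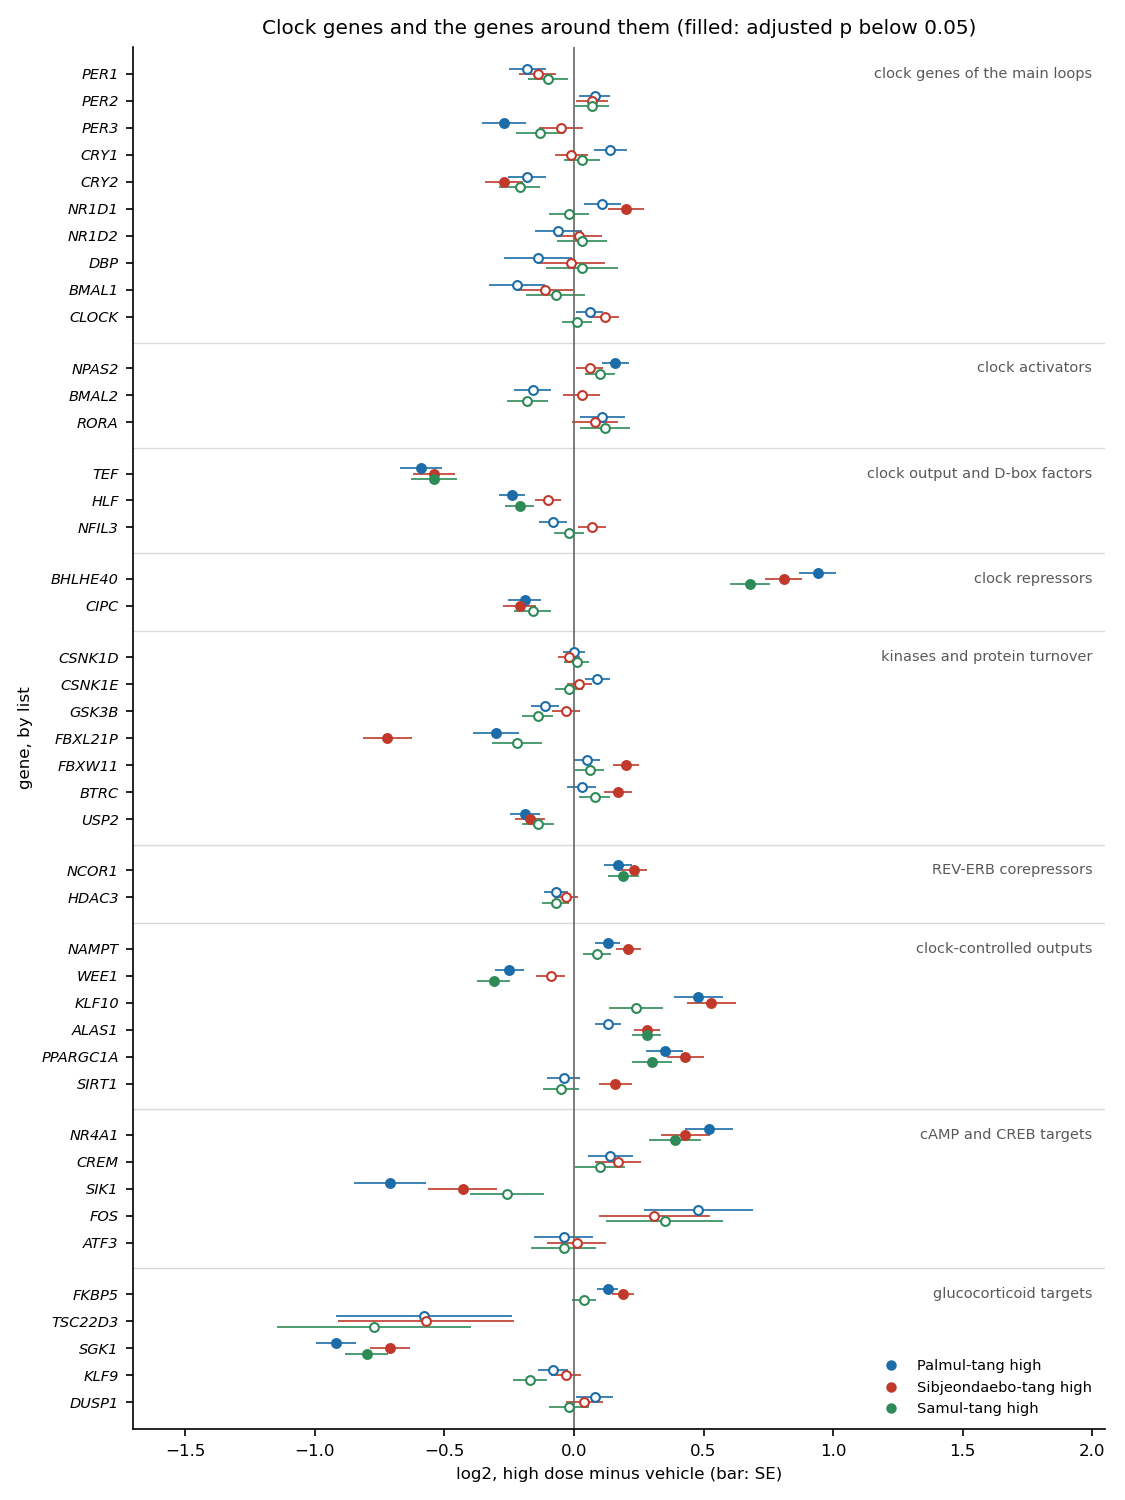
Log2 difference from vehicle at high dose (x axis, bars are standard errors) for the clock genes and the genes shown of 8 further lists (rows), with filled points where the test passed. The 10 clock genes stay between -0.27 and 0.20, while BHLHE40 reaches 0.94 and SGK1 -0.92.

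Genes with the most similar pattern were taken by Pearson's r of group means over the 12 extract groups, among 10576 genes with a mean log2 CPM of at least 2. The closest were TBC1D2B to CRY2 (r = 0.96), CPS1 to PER3 (0.96), TFR2 to DBP (0.97), WAC to NR1D1 (0.97), KMT2A to PER2 (0.95) and NAALADL1 to BMAL1 (0.95). They were UBR2 to CLOCK (0.93), ZNF75D to CRY1 (0.88), WNK3 to PER1 (0.87) and DCTN5 to NR1D2 (0.81). These are the highest of many values over few groups, and all genes were measured in the same libraries with the same depth and scaling. Sagunja-tang enters with 1 library per dose, and its high-dose library holds the lowest group mean of PER3, CRY2, DBP and BMAL1. The weight of these lone libraries in r was not tested. None of the 3 genes closest to each clock gene was another clock gene.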

How the data were processed

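HepG2 cells were sequenced as 100 bp paired-end reads from a directional mRNA kit, per the labels' protocols. The authors deposited expected counts per Ensembl gene, which share ambiguous reads by estimate, so 8.56% of values were not whole. Tools named in the submitters' processing notes are RSEM 1.3.3, STAR 2.7.3a, Trim Galore 0.6.5 and FastQC 0.11.9, and builds hg38 and GRCh38. The annotation release and the strand setting of the counting are not given in the sources used here. A further 240 columns of per-sample counts were not used. The sample labels give 0.1% DMSO for vehicle, where the series text gives a higher value. They give no DMSO share for the extract groups, so whether the solvent differed in the comparisons with vehicle is not known. Other treatments of the series were not analysed here.

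Expected counts were rounded. With edgeR 4.0.16 in R 4.3.3, filterByExpr (minimum count 10, minimum total 15) kept 16084 genes, and 1 robust quasi-likelihood model with TMM factors and group as its only term was fitted to the 27 libraries of the 10 groups with replicates (17 residual degrees of freedom, biological coefficient of variation 5.47%). The 18 comparisons were tested two-sided. Standard errors are the absolute log2 fold change over the square root of F. CPM use TMM factors over all 30 libraries. The test was tried on simulated data with known changes.

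The clock genes, the 8 further lists, the motifs and the marker lists were chosen with earlier results of these data known. All 10 clock genes are named in every comparison, and of each further list up to 4 tested genes with the smallest adjusted p in Sibjeondaebo-tang high against low or vehicle or Palmul-tang high against low. WEE1, CSNK1D, CSNK1E and GSK3B fall outside that rule and were named after their values were seen. Gene symbols matched 41209 rows; positions are from GENCODE 29, and start sequences from RefSeq on GRCh38.p14 (10 of 10 genes matched). Some genes of the further lists are counted but not reported here by name.

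Alternatives were DESeq2 1.42.0, median-ratio size factors, no filter, a fit to only the groups of a comparison, a block for the replicate number, each library left out and, for Sagunja-tang, a prior count of 0.5 in place of 2. An offset for GC content and length was added after seeing the data. Replicates of a group were compared by a chi-square of their counts, and all 24 pairs differed beyond counting noise (3.42 to 41.8 per degree of freedom), so each was counted.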

Additional observations from a re-analysis of the deposited data

Results flagged for a closer look

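PER2 at medium dose lay on opposite sides of vehicle in different formulas. All 3 Palmul-tang medium libraries (22.9, 23.2 and 22.8 CPM) and all 3 Sibjeondaebo-tang medium libraries (22.5, 24.0 and 24.2 CPM) were above the 3 vehicle libraries, by 0.11 and 0.14 on the log2 scale, while both Samul-tang medium libraries (17.1 and 20.4 CPM) were below them, with a log2 difference of -0.19. Over all tested genes, 19.2% had every Palmul-tang medium library above vehicle and 21.8% every Sibjeondaebo-tang medium library. For Samul-tang medium, 20% had both libraries below vehicle. The difference between the formulas was not tested. Samul-tang medium replicates 2 and 3 are the least alike pair of replicates in the data. The Samul-tang value was -0.06 without replicate 2 and -0.31 without replicate 3.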

How the results depend on the processing

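Depth limits DBP the most, with 68 to 208 counts per library. Over 2250 single-gene values under alternatives, none changed sign where the value was called, 43 lost a call, 22 gained one, and 135 differed in sign without being called in either. CRY2 in Sibjeondaebo-tang high, against vehicle and against low dose, kept its call in all 12 alternatives. The cause of the other changes was not tested.

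Counts of clock genes that passed changed as follows. In a fit of only the groups compared, 2 passed against vehicle in Palmul-tang high (1 in the fit reported), 3 in Sibjeondaebo-tang low (1), 1 in Samul-tang high (0) and 0 in Samul-tang medium (2), and 5 passed in Sibjeondaebo-tang high against low (2). With DESeq2, 1 passed in Sibjeondaebo-tang high (2), 1 in Samul-tang medium (2) and 1 in Palmul-tang high against low (2). With no filter on low counts, 1 passed in Sibjeondaebo-tang high (2), 1 in Sibjeondaebo-tang medium (2) and 0 in Samul-tang medium (2). With the GC and length offset, 1 passed in Palmul-tang medium (0), 2 in Sibjeondaebo-tang low (1) and 0 in Samul-tang medium (2).

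Leaving out each library in turn, between 0 and 2 clock genes passed against vehicle in Palmul-tang high, 0 and 1 in Palmul-tang low, 1 and 2 in Sibjeondaebo-tang high, 0 and 3 in Sibjeondaebo-tang medium, 0 and 2 in Sibjeondaebo-tang low, 0 and 2 in Samul-tang medium and 0 and 1 in Samul-tang low. High against low gave between 0 and 2 in Palmul-tang and between 1 and 2 in Sibjeondaebo-tang. Where a Samul-tang library was left out, the remaining one was assumed to vary like the other groups.

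Replicate numbers showed no uniform pairing of the samples: the correlations of same-numbered deviations ran from -0.358 to 0.358. For Sibjeondaebo-tang against Palmul-tang at medium dose they were 0.351, -0.159 and 0.358. They were all above 0, from 0.097 to 0.323, in the Samul-tang comparisons with vehicle and of high with low dose, where only 2 numbers are shared. With 2 libraries per dose, the 2 values of high against low, both 0.323, are the same number. The correlations cannot exclude effects shared by a replicate number. With the replicate number as a block, the count of clock genes called was within 1.5 times that reported in all 18 comparisons, for example 2 in Samul-tang medium, with PER2 at -0.20 (adjusted p = 0.0351).

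Counts of all genes passing, which give the shares beside the clock genes, moved by more than 1.5 times in these cases. With a library left out the lowest counts were 2309 of 3593 in Palmul-tang medium, 2389 of 3727 in Palmul-tang low, 2284 of 3695 in Sibjeondaebo-tang low, 1300 of 2980 in Samul-tang high, 747 of 3188 in Samul-tang medium and 604 of 1806 in Samul-tang low. For high against low they were 702 of 1091 in Palmul-tang, 2043 of 3191 in Sibjeondaebo-tang and 85 of 229 in Samul-tang. They were 545 of 1040 for Sibjeondaebo-tang against Palmul-tang at high dose and 2 of 5 at medium dose (up to 30 without Sibjeondaebo-tang medium replicate 1, 25 with DESeq2 and 26 with the replicate block), and 211 of 322, 1 of 2 and 164 of 270 for the 3 differences of dose effects. Alone, the groups compared gave 261 in Samul-tang medium. With no filter the counts were 376 for Samul-tang high against low, 168 and 72 for Sibjeondaebo-tang against Palmul-tang at medium and low dose, and 562, 85 and 542 for the differences of dose effects. The share of higher calls for Sibjeondaebo-tang against Palmul-tang at high dose moved from 27.1% to 15% with median-ratio factors and to 17% with no filter. For the difference of their dose effects it moved from 2.48% to 14.1% with no filter. For Sibjeondaebo-tang high against low it moved from 52.4% to 43% with median-ratio factors and to 39.8% with no filter.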
